A study of Mus musculus with 4 samples.

Results

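The genes of glutathione, thioredoxin and NRF2-dependent antioxidant defence were examined in the hippocampus of mice exposed to ATO during development and of untreated mice. They were chosen by gene symbol: glutathione S-transferases, glutathione peroxidases, peroxiredoxins, thioredoxins and their reductases, glutaredoxins, superoxide dismutases, and further named genes of the NRF2 pathway and of glutathione, heme and hydrogen peroxide metabolism. This gave 54 of the 15713 genes in the deposited table, 53 of them annotated as protein-coding and 1, Gpx4-ps2, as a transcribed processed pseudogene of Gpx4. The exposed group, called ATO here, held 2 hippocampus libraries from C57BL/6 mice of 11 to 12 weeks whose treatment label gives developmental exposure to ATO at 5000 ppb. The control group, called Ctr, held 2 hippocampus libraries from mice of the same inbred strain and age that had received no treatment. The labels do not spell out ATO, and the series title speaks of arsenic and of offspring. The sources used here give neither the sex of the animals nor the route and exact window of exposure, and do not say whether a library came from 1 animal or from a pool.

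Glutathione is a small thiol peptide that reduces peroxides and is joined to reactive compounds, arsenicals among them, by glutathione S-transferases. Thioredoxin and glutaredoxin hand electrons from NADPH to oxidised protein thiols and to the peroxiredoxins, which remove hydrogen peroxide. NRF2, encoded by Nfe2l2, is the transcription factor that induces many of these enzymes. KEAP1 holds it in the cytosol and directs its breakdown until its cysteines react with an oxidant or a thiol-binding agent such as trivalent arsenic. In the adult brain this system is known mainly from astrocytes, which supply neurons with glutathione precursors.

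The libraries held 17251032 and 16696546 counts in ATO replicates 1 and 2, against 14832214 and 15078919 counts in Ctr replicates 1 and 2, so that 1 count stood for 0.0580 to 0.0674 CPM, the count scaled to library size. All 12 hippocampal neuron markers examined were counted in each library, and 1 of them, Wfs1, fell (log2 -0.42 ± 0.11, adjusted p = 0.0463). Of 12 markers each, 1 astrocyte marker rose, 1 oligodendrocyte marker fell, 1 endothelial marker fell, and 0 microglial markers passed. At an unadjusted p under 0.05 (edgeR), 0 endothelial markers were higher and 5 lower, and 3 hippocampal neuron markers were higher and 1 lower. For astrocytes 4 were higher and 3 lower, for oligodendrocytes 0 and 1, and for microglia 1 and 0. Of all genes 10.6% were higher and 7.55% lower at that level. The summed CPM of 20 choroid plexus markers was 3514 and 4380 in the ATO libraries, against 222 and 286 in the Ctr libraries. Of 11 ependymal markers 7 rose and 0 fell, and their summed level was 57.9 and 43.0 CPM in ATO against 21.8 and 25.7 CPM in Ctr. Neuron markers (12) summed to 12228 and 12535 CPM in ATO and to 12883 and 12551 CPM in Ctr, and 0 of them passed. In whole-tissue RNA a higher or lower level may come from more or fewer cells of a type or from more or less RNA per cell. These cannot be told apart.

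Of the 54 genes 1 rose and 0 fell in ATO (1.85%), where 3.73% of all genes passed, 2.87% higher and 0.859% lower (edgeR quasi-likelihood test, Benjamini-Hochberg adjusted p under 0.05 over all 15713 genes). The gene that rose was Gpx8, which encodes a peroxidase of the endoplasmic reticulum. The core enzymes of glutathione synthesis, the thioredoxin system and the superoxide dismutases of the cytosol and mitochondria had 95% intervals of the fold change inside 1.5-fold in either direction. The median log2 fold change of ATO over Ctr was -0.02 over the 54 genes and -0.00496 over all genes, and the median absolute log2 fold change was 0.083 over the 54 and 0.141 over all genes. Of the 54, 23 lay above 0 and 31 below, where 49.0% of all genes lay above 0. The 95% interval of the fold change lay inside 1.5-fold in either direction for 41 of the 54 genes (75.9%), as it did for 64.5% of all genes. At an unadjusted p under 0.05 there were 11 genes (20.4%), 5 higher and 6 lower, where 18.1% of all genes reached it, 10.6% higher and 7.55% lower. These shares were near those of all genes.

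**Figure D1:**
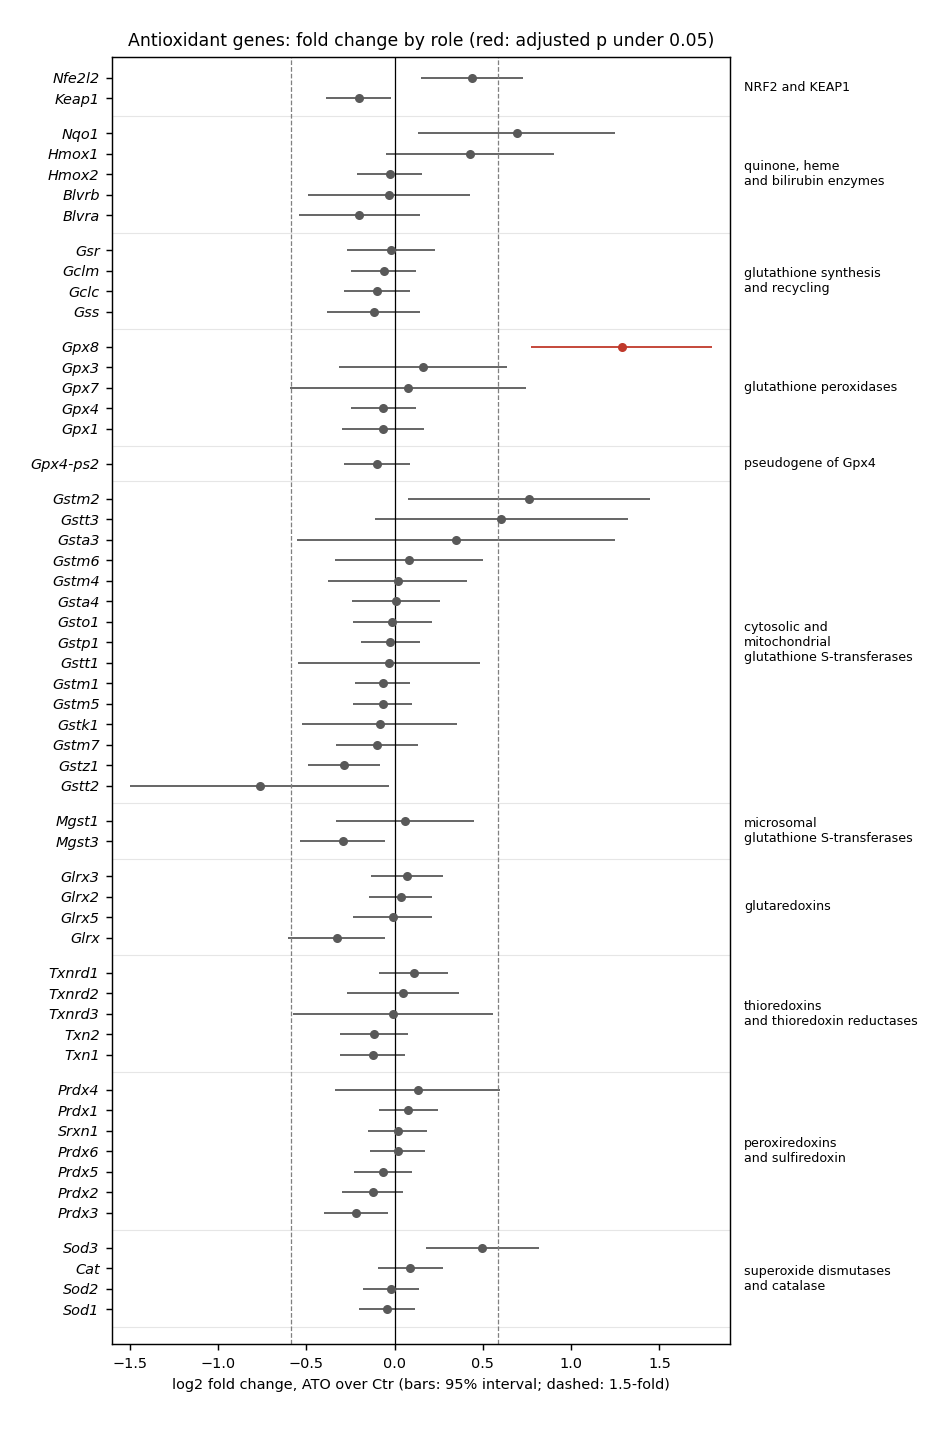
Fitted log2 fold change of ATO over Ctr (x axis, points) with 95% intervals (bars) for each of the 54 antioxidant genes, grouped by role; dashed lines mark 1.5-fold and red marks an adjusted p under 0.05. Gpx8 at 1.29 is the red point, and 43 of the intervals cross 0.

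Levels differed far more between genes than between groups. On the deposited FPKM scale, which divides by gene length, the glutathione S-transferase gene Gstm1 was the highest, with 125 and 124 FPKM in ATO and 127 and 133 FPKM in Ctr. Its neighbours in the order were Gstm5 at a mean of 98.5 ± 2.45 FPKM in ATO and 103 ± 6.04 FPKM in Ctr, the pseudogene Gpx4-ps2 at 91.3 ± 3.63 and 97.4 ± 9.83 FPKM, and the peroxiredoxin gene Prdx5 at 89.0 ± 1.12 and 92.8 ± 7.19 FPKM (mean ± SD, n = 2 each). In each of the 4 libraries Gstm5 was above Gpx4-ps2 and Gpx4-ps2 above Prdx5, though the ranges of neighbours over all libraries overlapped. The level and place of Gpx4-ps2 are uncertain, because a transcript of Gpx4 is near-identical to it. In all 26 of the 54 genes averaged at least 10 FPKM over the 4 libraries. The lowest were Gstt3, Gstt2 and Gsta3, each under 1 FPKM, with 14 to 45 counts per library. No gene of the group was under 1 CPM in both libraries of a group (0 of 54), and the lowest count in any library was 14.

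**Figure D2:**
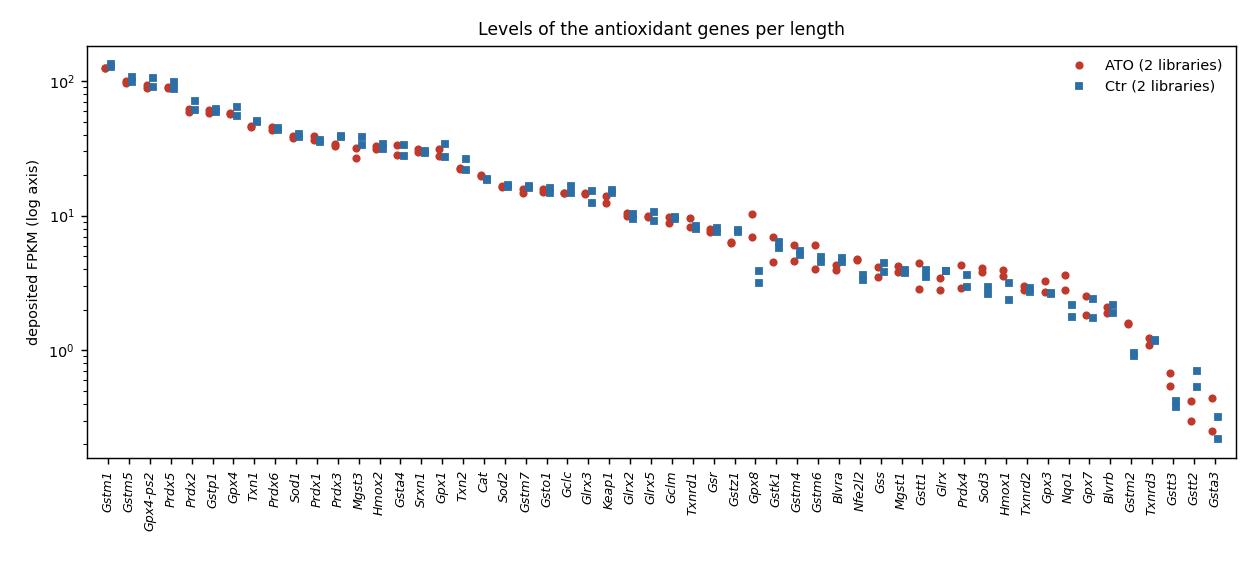
Deposited FPKM (y axis, log scale) of the 54 antioxidant genes ordered by their mean over 4 libraries; red circles are the 2 ATO libraries and blue squares the 2 Ctr libraries. Mean levels run from 127 FPKM for Gstm1 to 0.308 FPKM for Gsta3, and the red and blue points of most genes lie close together.

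The glutathione peroxidases were the role group that held the call. Gpx1, Gpx3 and Gpx4 use selenocysteine, written by an in-frame TGA codon, at the site that reacts with the peroxide, while Gpx7 and Gpx8 carry a cysteine codon there. The stretches below show this difference within the family: they are coding sequence from GENCODE transcripts of GRCm38 around that codon, read 5′ to 3′ on the gene's strand, with the codon in capitals.
Gpx8, chr13:113045649-113045675, minus strand: gtggctagtgacTGCcgcttcacagac
Gpx7, chr4:108403418-108403444, minus strand: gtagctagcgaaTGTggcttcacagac
Gpx1, chr9:108339439-108339465, plus strand: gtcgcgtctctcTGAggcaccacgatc
Gpx3, chr11:54907244-54907270, plus strand: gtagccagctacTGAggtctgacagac
Gpx4, chr10:80054725-80054751, plus strand: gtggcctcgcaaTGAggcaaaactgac
GENCODE annotates the TGA codons of Gpx1, Gpx3 and Gpx4 as selenocysteine; the codon is number 79 of 209 in Gpx8 and number 47 of 201 in Gpx1, counted from the start codon.

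Gpx8 (ENSMUSG00000021760, chromosome 13 from 113042753 to 113046410, minus strand) had 10.7 and 7.28 normalised CPM in ATO replicates 1 and 2, against 3.32 and 4.04 normalised CPM in Ctr replicates 1 and 2. Both ATO libraries were above both Ctr libraries, and ATO replicate 1 was the highest. It rose 2.44-fold (log2 1.29 ± 0.24 SE, 95% interval 0.77 to 1.80, adjusted p = 0.00797), on 186 and 121 counts in ATO against 49 and 61 counts in Ctr. The authors' deposited table gives it a log2 fold change of 1.24 with an adjusted p of 0.00954 and marks it as differentially expressed, the only mark among the 54 genes, where 0.974% of all genes carry the mark. The call was lost without ATO replicate 1 (log2 0.98, adjusted p = 0.0577) and without Ctr replicate 1 (log2 1.16, adjusted p = 0.0612); such a fit leaves 1 library in a group, which is assumed to vary like the other group. The annotated gene lies wholly inside Cdc20b, which runs on the opposite strand and was not analysed here, but the annotated exons of the pair share 0 bases.

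**Figure D3:**
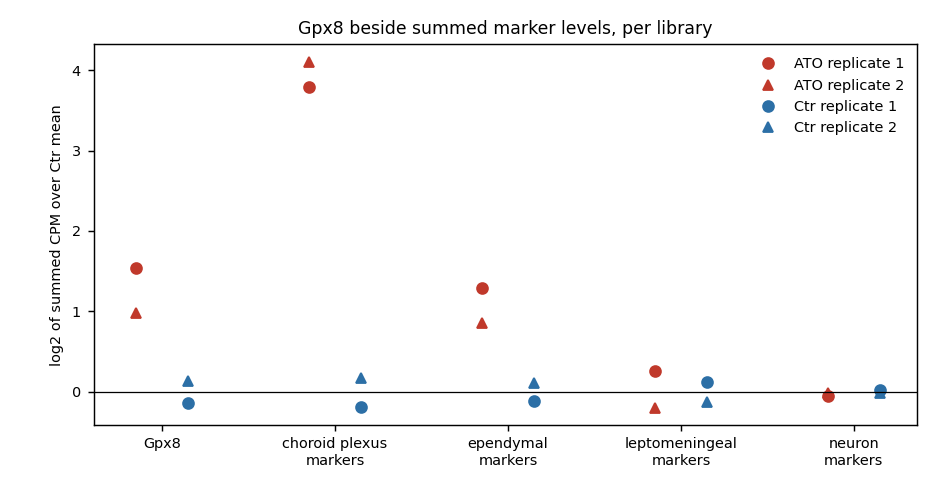
Log2 of the normalised CPM of Gpx8 and of the summed CPM of marker lists (x axis) in each library over the Ctr mean (y axis); red is ATO and blue is Ctr, circles are replicate 1 and triangles replicate 2. Gpx8 stands at 1.54 and 0.98 in ATO, the choroid plexus sum at 3.79 and 4.11 and the neuron sum at -0.06 and -0.02.

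Markers of other cell types moved in the same ATO libraries as Gpx8. Of the 20 choroid plexus markers 20 rose, none was at 0 in any library, and their sum was higher in ATO replicate 2 than in ATO replicate 1. The ependymal and leptomeningeal fibroblast sums were higher in ATO replicate 1. The 12 leptomeningeal fibroblast markers summed to 215 and 157 CPM in ATO and to 195 and 164 CPM in Ctr, so that the summed groups overlapped. Of these 12 markers 1 rose (Igf2) and 1 fell (Dcn), 10 lay above 0, their median log2 fold change was 0.69, and at an unadjusted p under 0.05 6 were higher and 2 lower (edgeR). The part of these cells in the level of Gpx8 was not tested.

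The other 4 protein-coding glutathione peroxidase genes did not pass. Gpx4, which reduces lipid hydroperoxides in membranes and protects cells from ferroptosis, had 97.3 and 101 CPM in ATO and 96.1 and 111 CPM in Ctr (log2 -0.06 ± 0.09, adjusted p = 0.753). Gpx1, the cytosolic enzyme that reduces hydrogen peroxide, had 44.5 and 40.2 CPM in ATO and 39.7 and 49.0 CPM in Ctr (log2 -0.07 ± 0.11, adjusted p = 0.805). For both genes the ATO libraries lay between the Ctr libraries. The secreted Gpx3 was at 0.16 ± 0.22 and Gpx7, the endoplasmic reticulum relative of Gpx8, at 0.08 ± 0.31 on the log2 fold change scale. The intervals of these last genes, -0.31 to 0.64 and -0.59 to 0.74, were wide, on 34 to 102 counts per library. The pseudogene Gpx4-ps2 had 70.2 and 75.3 CPM in ATO and 72.6 and 83.2 CPM in Ctr. A transcript of Gpx4 matches it at 99.7% over 762 bases, so reads may have been split between them, and the levels of both are uncertain.

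NRF2 itself and its inhibitor lay below the threshold, on opposite sides of 0. Nfe2l2 (ENSMUSG00000015839, chromosome 2 from 75675513 to 75704641, minus strand) had 17.6 and 18.2 CPM in ATO, against 12.6 and 13.8 CPM in Ctr. The groups did not overlap and the libraries of each group were close to each other, but the gene did not pass (log2 0.44 ± 0.13, interval 0.15 to 0.72, adjusted p = 0.0928). Keap1 (ENSMUSG00000003308, chromosome 9 from 21229730 to 21239361, minus strand) had 65.4 and 58.3 CPM in ATO, against 69.8 and 72.8 CPM in Ctr. Again the groups did not overlap, and the log2 fold change of -0.20 ± 0.09 did not pass (adjusted p = 0.226). Keap1 shares 510 exon bases with an opposite-strand antisense gene, Gm16754, at 2.12 and 1.51 CPM in ATO and 1.63 and 1.85 CPM in Ctr.

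Among the enzymes of quinones, heme and bilirubin, Nqo1 and Hmox1 are the classical readouts of NRF2 activity. Nqo1 (ENSMUSG00000003849, chromosome 8 from 107388225 to 107403206, minus strand), a quinone reductase, had 4.31 and 5.66 CPM in ATO and 2.78 and 3.38 CPM in Ctr. Hmox1, the inducible heme oxygenase, had 6.83 and 6.26 CPM in ATO and 5.56 and 4.17 CPM in Ctr. Both ATO libraries were above both Ctr libraries for each gene, but neither passed: the log2 fold change was 0.69 ± 0.26 for Nqo1 (adjusted p = 0.173) and 0.43 ± 0.22 for Hmox1 (adjusted p = 0.336). Their intervals, 0.13 to 1.25 and -0.05 to 0.91, include changes beyond 1.5-fold. Hmox2, the constitutive heme oxygenase and the most abundant of these enzymes in the hippocampus, had 68.6 and 74.0 CPM in ATO and 69.4 and 76.2 CPM in Ctr (log2 -0.03 ± 0.08). It shares 892 exon bases with Cdip1 on the opposite strand, at 281 and 290 CPM in ATO and 275 and 269 CPM in Ctr. The biliverdin reductase genes Blvra (-0.20 ± 0.16) and Blvrb (-0.03 ± 0.22) did not pass either. Of all 54 genes the groups did not overlap for 22 (40.7%), 10 higher and 12 lower, where this held for 48.1% of all genes, 24.8% higher and 23.4% lower.

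**Figure D4:**
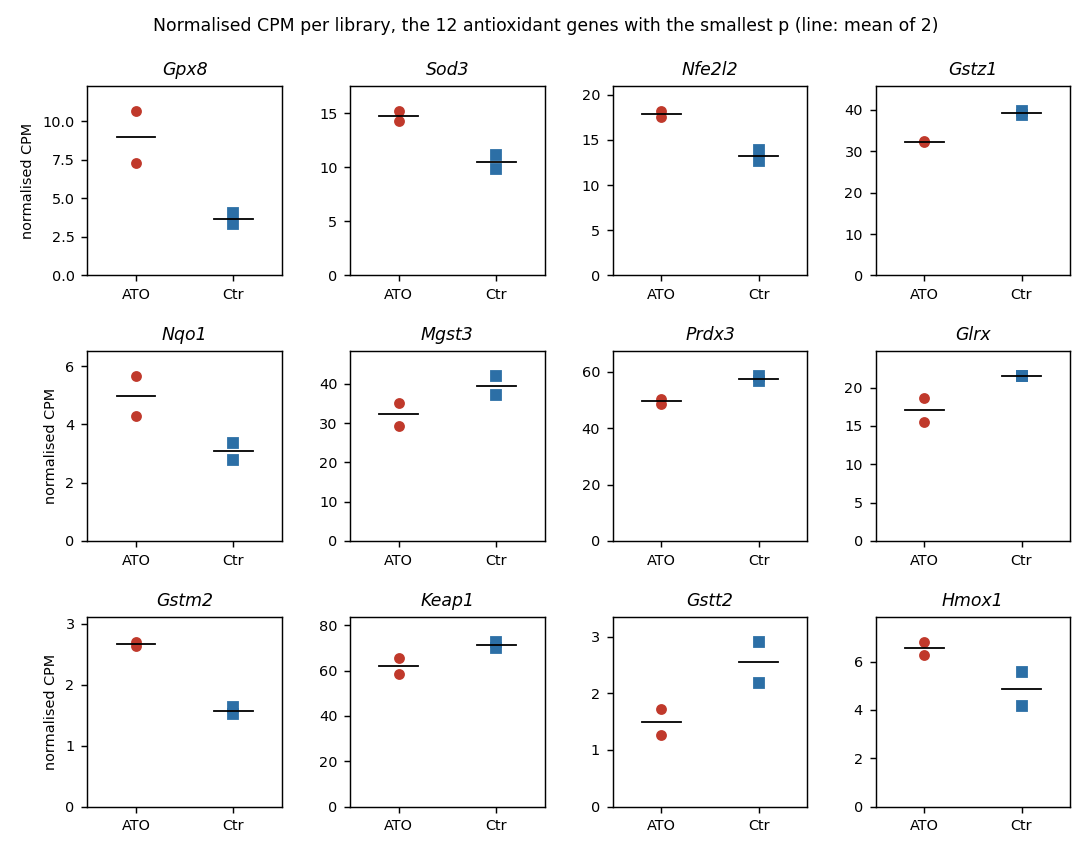
Normalised CPM (y axis, from 0) in each library for the 12 antioxidant genes with the smallest p; red circles are ATO, blue squares Ctr, and black lines the means of 2. Gpx8 passed, and for each of the 12 genes the libraries of the groups do not overlap.

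Glutathione is made by glutamate-cysteine ligase, whose catalytic and modifier subunits are Gclc and Gclm, and by glutathione synthetase, Gss; Gsr returns its oxidised form to the reduced form. All 4 genes had a log2 fold change just below 0, between -0.12 and -0.02, and 0 of the 4 passed. Gclc had 55.3 and 55.6 CPM in ATO and 56.2 and 62.4 CPM in Ctr. Gclm had 60.9 and 55.6 CPM in ATO and 62.3 and 59.3 CPM in Ctr. Each of their intervals, -0.28 to 0.09 for Gclc and -0.25 to 0.12 for Gclm, lay inside 1.5-fold. Gsr had 20.6 and 22.2 CPM in ATO and 21.0 and 22.4 CPM in Ctr (log2 -0.02 ± 0.12). Gss, at 24.3 and 20.8 CPM in ATO and 22.9 and 26.2 CPM in Ctr (log2 -0.12 ± 0.12), shares 395 exon bases with Acss2 on the opposite strand.

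Of 15 cytosolic and mitochondrial glutathione S-transferase genes 0 passed, and their median log2 fold change was -0.02. The enzymes join glutathione to electrophiles, and the abundant mu class (Gstm) forms a cluster of 6 genes on chromosome 3 from 107895821 to 108044894. Gstm1 had 182 and 184 CPM in ATO and 189 and 195 CPM in Ctr, a log2 fold change of -0.07 ± 0.07. Within this cluster the log2 fold changes ran from -0.10 for Gstm7 to 0.76 for Gstm2. Gstm2, the least abundant of the 6, had 2.64 and 2.71 CPM in ATO and 1.63 and 1.52 CPM in Ctr. Its groups did not overlap, but it did not pass (log2 0.76 ± 0.32, adjusted p = 0.225). The theta class (Gstt) lies within chromosome 10 from 75774115 to 75837424, and its members differed in sign: Gstt3 was at 0.60 ± 0.34, Gstt1 at -0.03 ± 0.24 and Gstt2 at -0.77 ± 0.34 (adjusted p = 0.257), the lowest value among the 54. Gstt2 had 30 and 21 counts in ATO and 43 and 33 counts in Ctr. Whether reads were exchanged between related genes of these classes was not tested.

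Gstz1, the maleylacetoacetate isomerase of tyrosine breakdown, had 32.1 and 32.3 CPM in ATO against 38.8 and 39.8 CPM in Ctr. The ATO libraries were close together and below both Ctr libraries, and the log2 fold change was -0.29 ± 0.10 (unadjusted p = 0.00958, adjusted p = 0.123, edgeR). It shares 465 exon bases with Pomt2 on the opposite strand, which was at 0.09 ± 0.11. Gsto1, whose human counterpart reduces methylated arsenic species, had 29.9 and 32.1 CPM in ATO and 32.8 and 29.9 CPM in Ctr (log2 -0.01 ± 0.10, interval -0.24 to 0.21). Gstp1 (-0.02 ± 0.08), Gsta4 (0.01 ± 0.12), Gstk1 (-0.08 ± 0.21) and Gsta3 (0.35 ± 0.42) also overlapped between groups; Gstp1 is near-identical to Gstp2 (98.2% over 707 bases), which was not analysed here. Of the membrane-bound microsomal enzymes, Mgst3 had 29.4 and 35.1 CPM in ATO and 37.1 and 42.0 CPM in Ctr, with no overlap (log2 -0.30 ± 0.11, adjusted p = 0.174), and Mgst1 was at 0.06 ± 0.18. In several low genes the ATO libraries differed from each other more than the groups did: ATO replicate 1 was the higher by 0.62 log2 units in Gstt1, 0.58 in Gstk1, 0.58 in Gstm6 and 0.54 in the peroxiredoxin gene Prdx4. In Gpx8 the same difference was 0.55 log2 units.

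The thioredoxin system showed no call. The reductases Txnrd1 (cytosol), Txnrd2 (mitochondria) and Txnrd3 are selenoenzymes whose TGA codon stands at the very end of the coding sequence, shown here because with Gpx1, Gpx3 and Gpx4 they make up the 6 genes annotated with selenocysteine. The stretches run 5′ to 3′ on the gene's strand, with the selenocysteine codon in capitals.
Txnrd1, chr10:82896025-82896042, plus strand: cagtctggctgcTGAggt
Txnrd2, chr16:18477760-18477777, plus strand: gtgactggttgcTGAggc
Txnrd3, chr6:89674777-89674794, plus strand: cagaaaggctgcTGAggc
Of these 6 selenoenzyme genes 0 passed, and their log2 fold changes lay between -0.07 and 0.16 with a median of 0.02, against -0.02 over all 54 genes.

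Txnrd1 had 67.7 and 58.4 CPM in ATO and 57.2 and 59.9 CPM in Ctr (log2 0.11 ± 0.09). Its substrate thioredoxin, Txn1, had 47.5 and 49.1 CPM in ATO and 53.1 and 52.1 CPM in Ctr. The ATO libraries were the lower for Txn1, but the gene did not pass (log2 -0.12 ± 0.09, adjusted p = 0.492). The mitochondrial pair of Txn2 (-0.12 ± 0.09) and Txnrd2 (0.05 ± 0.15) and the testis-type reductase gene Txnrd3 (-0.01 ± 0.27) overlapped between groups. Among the glutaredoxins, Glrx had 18.7 and 15.5 CPM in ATO against 21.5 and 21.5 CPM in Ctr. The groups did not overlap, and the log2 fold change was -0.33 ± 0.13 (adjusted p = 0.191). The iron-sulfur glutaredoxin genes Glrx3 (72.2 and 74.5 CPM in ATO, 62.9 and 76.6 CPM in Ctr) and Glrx5 (-0.01 ± 0.10) and the mitochondrial Glrx2 (0.03 ± 0.08) lay near 0.

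Of 7 peroxiredoxin and sulfiredoxin genes 0 passed, and 6 of them had an interval inside 1.5-fold, Prdx4 being the exception (-0.34 to 0.60). Prdx3, the mitochondrial peroxiredoxin, had 50.2 and 48.6 CPM in ATO and 58.4 and 56.6 CPM in Ctr. Its groups did not overlap (log2 -0.22 ± 0.09, unadjusted p = 0.0217, adjusted p = 0.187, edgeR). Prdx6, which reduces phospholipid hydroperoxides and is typical of astrocytes, had 217 and 211 CPM in ATO and 209.9 and 213 CPM in Ctr (log2 0.02 ± 0.07). Prdx1, an abundant cytosolic peroxiredoxin, had 111 and 120.3 CPM in ATO and 109 and 110.1 CPM in Ctr (log2 0.08 ± 0.08). Srxn1, which repairs over-oxidised peroxiredoxins and is a sensitive NRF2 target, had 87.3 and 84.0 CPM in ATO and 86.4 and 82.8 CPM in Ctr. Its interval ran from -0.15 to 0.19 around a log2 fold change of 0.02. Prdx5 had 187 and 193 CPM in ATO and 189 and 209.6 CPM in Ctr (log2 -0.07 ± 0.08), and Prdx2, the neuronal peroxiredoxin, was at -0.13 ± 0.08.

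Superoxide dismutases turn superoxide into hydrogen peroxide, which catalase breaks down. Sod3 (ENSMUSG00000072941, chromosome 5 from 52363791 to 52371418, plus strand), the extracellular enzyme, had 15.3 and 14.3 CPM in ATO against 11.1 and 9.87 CPM in Ctr. Its groups did not overlap, and with log2 0.50 ± 0.15 (adjusted p = 0.0856) it came next after Gpx8 in the order of p without passing. The cytosolic Sod1 had 149 and 156 CPM in ATO and 155 and 159 CPM in Ctr (log2 -0.04 ± 0.07). The mitochondrial Sod2 had 165 and 165 CPM in ATO and 171 and 163 CPM in Ctr (log2 -0.02 ± 0.07). A transcript of Sod2 matches one of Rps6ka2 at 98.3% over 3110 bases, and whether reads were exchanged was not tested. Catalase, Cat, had 51.9 and 51.6 CPM in ATO and 48.3 and 49.0 CPM in Ctr (log2 0.09 ± 0.09). The intervals of Sod1 (-0.20 to 0.12), Sod2 (-0.18 to 0.14) and Cat (-0.09 to 0.27) lay inside 1.5-fold, and that of Sod3 (0.18 to 0.82) did not.

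NRF2 binds DNA with a small MAF protein at the antioxidant response element, whose core reads TGACNNNGC. RefSeq promoter windows of 300 bases (250 before a transcript start and 50 after it, GRCm38.p6) were found for 46 of the 54 genes, 66 windows in all, since 13 genes had more than 1; Sod3, Gstt2, Hmox1, Gpx4-ps2, Gclc, Prdx6, Gsr and Gsta4 had none. Searched on both strands, 11 of the 46 genes (23.9%) held the core, against 16.7% of the 11552 tested genes with a window and 13.99% of all 27025 genes in the promoter table. Counted by window, 11 of 66 (16.7%) held it, against 13.97% of the 14842 windows of tested genes. The matches of Nfe2l2 itself and of the best known NRF2 targets and abundant enzymes among the 11 are shown on the strand where the core reads forward, with the core in capitals.
Nfe2l2, chr2:75704885-75704913, minus strand: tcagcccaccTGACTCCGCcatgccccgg
Srxn1, chr2:152105542-152105570, minus strand: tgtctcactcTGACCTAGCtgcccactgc
Txnrd1, chr10:82859104-82859132, minus strand: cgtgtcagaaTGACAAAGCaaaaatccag
Prdx1, chr4:116685456-116685484, minus strand: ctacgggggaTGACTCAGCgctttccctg
Gclm, chr3:122245413-122245441, minus strand: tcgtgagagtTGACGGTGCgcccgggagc
Sod1, chr16:90220696-90220724, minus strand: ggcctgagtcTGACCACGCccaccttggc
The core of Prdx1 also contains TGACTCA, the site of AP-1 factors; the other printed stretches do not. The remaining matches lay in the windows of Blvra, Gsta3, Gstm5, Gstm7 and Mgst1. Of the 11 genes 0 passed, where 3.73% of all genes did, so a count of 0 among 11 says little. The 11 genes had a median log2 fold change of 0.02, the lowest -0.20 and the highest 0.44. The 35 genes with a window and no match had a median of -0.02, and Gpx8 was among them. So was Nqo1, a classical readout of NRF2 activity. Over all 1926 tested genes with the core, 89 passed and the median log2 fold change was -0.00066. A match is a run of letters in this window and not a binding site, and sites outside these windows were not searched. The windows of several matches, those of Txnrd1, Mgst1 and Gstm7 among them, belong to starts inside the annotated gene, that of Txnrd1 the furthest inside.

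Other genes of the pathway were read from lists, beside the 2.87% of all genes that rose and the 0.859% that fell. Of 14 partners and regulators of NRF2 0 passed, and their median log2 fold change was 0.01. The small MAF genes Maff, Mafk and Mafg had log2 fold changes of 1.48 ± 0.39 (adjusted p = 0.0510), 0.42 ± 0.16 (adjusted p = 0.169) and 0.12 ± 0.08 (adjusted p = 0.461), and Palb2, whose product binds KEAP1, had -1.20 ± 0.39 (adjusted p = 0.105). Maff was low, with 1.95 and 2.77 CPM in ATO against 0.950 and 0.728 CPM in Ctr, and Mafg was the most abundant of the small MAF genes, with 102 and 101 CPM in ATO against 96.4 and 89.8 CPM in Ctr. Of 19 other NRF2-induced enzymes and transporters 1 rose and 0 fell, and their median log2 fold change was 0.06. Ephx1, microsomal epoxide hydrolase, rose, with a mean of 31.6 ± 1.65 CPM in ATO against 21.1 ± 1.54 CPM in Ctr (SD, n = 2 each; log2 0.59 ± 0.11, adjusted p = 0.00950). The cystine importer gene Slc7a11, which supplies glutathione synthesis, had 48.9 and 36.2 CPM in ATO and 37.3 and 25.9 CPM in Ctr, with overlap between groups (adjusted p = 0.160). Of 22 genes of glutathione supply, breakdown and transport 0 passed, the smallest adjusted p being that of the mitochondrial glutathione importer gene Slc25a39 (log2 0.29 ± 0.09, adjusted p = 0.0931).

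Of 24 other thioredoxin-linked genes 2 rose and 0 fell, where 2.87% of all genes rose and 0.859% fell. Txnip, whose product binds and inhibits thioredoxin and is induced by glucose and glucocorticoids, had 32.9 and 30.4 CPM in ATO against 17.8 and 18.1 CPM in Ctr. It rose 1.77-fold (log2 0.82 ± 0.11, adjusted p = 5.87e-04). Nxn, nucleoredoxin, a thioredoxin relative, rose to 17.6 and 15.5 CPM in ATO, against 11.4 and 9.602 CPM in Ctr (log2 0.66 ± 0.15, adjusted p = 0.0288). Of 9 genes of arsenic uptake and methylation 2 rose and 0 fell: the glucose transporter gene Slc2a1 (log2 0.68 ± 0.08, adjusted p = 2.41e-04) and Mat2a (log2 0.35 ± 0.08, adjusted p = 0.0317), which makes the methyl donor S-adenosylmethionine. As3mt, the arsenic methyltransferase, had 6.83 and 8.13 CPM in ATO and 8.61 and 8.28 CPM in Ctr (log2 -0.18 ± 0.19, adjusted p = 0.680). The choroid plexus and ependymal markers were higher in the same libraries, and their part in these rises was not tested. These lists are short and were chosen with earlier results of these data known, so their counts are description only.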

How the data were processed

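RNA sequencing counts of 2 ATO and 2 Ctr mouse hippocampus libraries were analysed. The authors deposited 1 table of raw counts and FPKM values per gene, with their log2 fold changes and p-values; per the submitters' processing notes it involved limma 3.47.15 in R 4.1.0, HTSeq 0.6.1, HISAT2 2.0.1, cutadapt 1.9.1 and FastQC 0.10.1, with GRCm38. Every gene in it exceeds 1 CPM in at least 2 libraries. Whether counting used strand is not given in the sources used here. The deposited counts were tested with edgeR 4.0.16 (R 4.3.3; filterByExpr, TMM, quasi-likelihood test, Benjamini-Hochberg over 15713 genes, adjusted p under 0.05); log2 fold changes are ATO over Ctr, ± is the SE for these and the SD for levels, and intervals are 95%. CPM values are TMM-normalised. The fit was also run on simulated counts whose spread was taken from the fit of these same libraries, so this cannot check that spread. DESeq2 1.42.0 and limma-voom (limma 3.58.1) were alternatives. Positions, overlaps and codons came from GENCODE on GRCm38, near-identical transcripts (at least 95% over 500 bases) from blastn 2.17.0, and promoter windows from RefSeq. No source says that the libraries came from separate animals or litters, so p-values measure only the spread between these samples. The genes and lists were chosen with earlier results of these data known. Values per library are given for genes that passed, the 12 with the smallest p, the most abundant gene of each role and a set of core enzymes, and for up to 4 genes of each further list.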

Additional observations from a re-analysis of the deposited data

How the results depend on the processing

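Beside the main fit, 11 settings were tried. The setting with no filter repeated the main fit, since the filter had removed 0 genes, and is no separate check. Gpx8 stayed higher with an adjusted p under 0.05 with DESeq2's size factors (RLE), library size only, DESeq2's Wald test, limma-voom and the replicate block. Its log2 fold change was 1.43 without Ctr replicate 2 and 1.53 without ATO replicate 2. The fits leaving out 1 library have 1 library in a group, assumed to vary like the other group, so they are weak tests. Gpx8 lost the call without Ctr replicate 1 or ATO replicate 1, and was below the filter at a mean of 10 CPM, where 0 genes of the group passed; over the fits leaving out 1 library the number that rose was 0 to 1. The number that fell was 0 by edgeR, DESeq2 and limma-voom, with 6 genes lower at an unadjusted p under 0.05 by edgeR, 2 by DESeq2, and 2 to 5 over the fits leaving out 1 library. At that level 5 genes were higher by edgeR, 3 by DESeq2, 2 at a mean of 10 CPM, and 3 to 5 over the fits leaving out 1 library. Of all genes tested, 586 passed, against 316 by DESeq2 and 222 to 611 over the fits leaving out 1 library, the lowest without Ctr replicate 2. No label ties the replicate numbers across the groups, and the correlation of deviations between equal numbers was 0.088. Whether the numbers pair the samples is not known. With the replicate block 1366 genes passed, with 3 of the 54 higher (Gpx8, Sod3 and Nfe2l2) and 1 lower (Mgst3). The cause of these shifts was not tested. The median of the 54 ran from -0.04 to 0.01; at a mean of 10 CPM, where 37 were tested, it was -0.06. Of 336 values of 31 named genes under these settings 331 kept their call, and 11 uncalled genes changed fitted sign in at least 1 setting. Gpx8 was the only named gene called in the main fit, so these numbers say little about its call. Low read counts limit the lowest genes: the intervals of Gstt2, Gstt3 and Gsta3 reach beyond 1.5-fold.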
